A study of Mus musculus with 21 samples.

Results

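The corticosteroid receptors and a small group of genes that respond to corticosteroids were followed across 21 arrays of dentate gyrus RNA from transgenic mice in which an inducible construct raises NgR, the Nogo receptor encoded by *Rtn4r*. The group held 8 genes, *Nr3c1*, *Nr3c2*, *Fkbp5*, *Sgk1*, *Tsc22d3*, *Hsd11b1*, *Zbtb16* and *Pdk4*, out of 18193 gene symbols on the array. They were chosen by symbol, and every probe set annotated to one of the 8 symbols was taken, which gave 20 of 45037 probe sets. A probe set is a group of short array probes designed against one transcript. *Nr3c1* had 6, *Tsc22d3* 4, *Fkbp5* and *Zbtb16* 3 each, and *Nr3c2*, *Sgk1*, *Hsd11b1* and *Pdk4* 1 each. No member probe set passed the test in any comparison made.

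The arrays fell into 7 groups of 3. Set 1 compared bitransgenic mice on water from which doxycycline had been withdrawn to switch NgR on, bitransgenic mice kept on a doxycycline diet that held the transgene off, and monotransgenic mice on water. Monotransgenic mice carry the NgR transgene but not tTA, the activator that doxycycline blocks. Experiment 2 set bitransgenic mice on water that had never met doxycycline against monotransgenic mice on water. Set 3 set bitransgenic against monotransgenic mice, with no treatment stated for either. The promoter behind tTA, the age and the sex of the mice are not in the labels. Nor do the labels say whether each sample is a different animal, and the p-values therefore speak only of how far these samples scatter.

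Corticosterone, the main glucocorticoid of the mouse, enters neurons and glia and binds a pair of nuclear receptors, the high-affinity mineralocorticoid receptor (*Nr3c2*) and the lower-affinity glucocorticoid receptor (*Nr3c1*). Both are abundant in hippocampal neurons, where the high-affinity receptor is largely occupied at rest and the other fills during stress and at the daily hormone peak. The bound receptor moves to the nucleus and, as a dimer, contacts a DNA palindrome whose arms are the hexamer AGAACA and its reverse complement TGTTCT. Genes with such elements nearby, among them *Fkbp5*, *Sgk1*, *Tsc22d3* and *Zbtb16*, are widely used as readouts of receptor activity.

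The motif could be seen in the promoter of 1 of the genes studied. RefSeq promoter windows (GRCm38.p6, 250 bases before to 50 after an annotated start) were at hand for *Nr3c2*, *Fkbp5*, *Sgk1*, *Tsc22d3*, *Hsd11b1* and *Pdk4*. *Sgk1* has several annotated starts, and the window at chr10:21993640-21993939 on the plus strand held the full palindrome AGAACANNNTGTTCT, with a further TGTTCT upstream. Among its 6 windows, 2 others held 1 hexamer each. *Tsc22d3*, with 3 windows, had a single TGTTCT in the one at chrX:140600473-140600772 on the minus strand. The *Sgk1* window is shown for its palindrome and the *Tsc22d3* window for comparison, with 1 arm alone, and matches to the hexamer on either strand are in capitals.
Sgk1: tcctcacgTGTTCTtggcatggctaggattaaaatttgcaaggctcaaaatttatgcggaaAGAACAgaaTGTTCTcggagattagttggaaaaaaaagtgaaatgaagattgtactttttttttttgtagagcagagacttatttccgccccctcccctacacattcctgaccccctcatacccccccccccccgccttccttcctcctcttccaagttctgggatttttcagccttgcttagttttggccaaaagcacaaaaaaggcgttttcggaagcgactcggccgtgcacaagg
Tsc22d3: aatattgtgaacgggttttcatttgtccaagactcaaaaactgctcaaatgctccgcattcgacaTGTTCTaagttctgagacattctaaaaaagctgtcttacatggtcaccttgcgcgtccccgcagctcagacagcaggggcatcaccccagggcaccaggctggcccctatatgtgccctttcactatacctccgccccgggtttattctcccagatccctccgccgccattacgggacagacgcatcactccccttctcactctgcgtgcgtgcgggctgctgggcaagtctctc

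In the *Sgk1* window the hexamers start 242, 189 and 180 bases before the annotated start, the last 2 being the arms of the palindrome. Of 32851 promoter windows of the same length, 19.0% held the hexamer on at least 1 strand and 0.0091% (3 windows) held the full palindrome. The windows of *Nr3c2*, *Fkbp5*, *Hsd11b1* and *Pdk4* held neither. Such a match describes the letters of a window and is not evidence of binding.

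Levels are the deposited intensities, a linear brightness per probe set that the authors scaled to the same trimmed mean on every array. A level of one probe set cannot be set against that of another, so each gene is compared with itself. Differences are in log2(intensity + 16) after quantile normalization, with standard errors from 1 limma fit over all 21 arrays. The fit covered the upper 60% of probe sets by mean level, 27022 in all, and a probe set was called at a Benjamini-Hochberg adjusted p under 0.05. Of the 20 member probe sets, 15 were bright enough to be kept, with every gene holding at least 1. The other 5 were 3 of *Nr3c1*, 1 of *Fkbp5* and 1 of *Tsc22d3*, which stayed at or below 20.9 on every array. Unless another is named, each gene is described by its probe set of highest mean.

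As a check of the labels, *Rtn4r* averaged 684 ± 681 after doxycycline removal, 90.4 ± 19.3 with the doxycycline diet and 80.4 ± 17.4 for set 1 monotransgenic mice (SD, n = 3 each). It averaged 574 ± 196 in bitransgenic and 141 ± 39.0 in monotransgenic mice of experiment 2, and 663 ± 96.6 in bitransgenic and 110 ± 23.7 in monotransgenic mice of set 3. Its mean log2 difference over the 3 sets was 2.28 ± 0.23 (SE), with a limma adjusted p of 1.901e-05. Removed against diet gave 2.30 ± 0.39 (limma adjusted p = 0.0486) and removed against monotransgenic 2.44 ± 0.39 (0.0336). Bitransgenic minus monotransgenic was 1.93 ± 0.39 in experiment 2 (0.0350) and 2.47 ± 0.39 in set 3 (0.0889). In set 3 alone *Rtn4r* itself was therefore not called. All 7 dentate granule cell markers checked were kept, with a summed intensity between 13908 and 23012. In set 1 the sum was 15001 to 18573 after removal, 17299 to 18497 on the diet and 18563 to 21575 in monotransgenic mice. The diet range thus lay wholly below the monotransgenic one. Experiment 2 gave 18889 to 19687 in bitransgenic against 16464 to 23012 in monotransgenic mice. Set 3 gave 13908 to 16014 against 14426 to 20171. The part of granule cell content in the member values was not tested. *Xist* read 2361 to 4750 on the 6 arrays of experiment 2 and 9.59 to 33.7 on the other 15. The Y-linked *Eif2s3y* read 0.32 to 9.84 in experiment 2 and 395 to 680.3 on the other 15. By these values the experiment 2 arrays read as female and the other 15 as male. Sex therefore cannot be told apart from experiment 2 where its difference is set against or averaged with those of the other sets. Experiment 2 had higher 3' to 5' signal ratios of the beta-actin control probes too, 4.79 to 6.24 on the log2 scale against 4.11 to 5.04 elsewhere, a measure that moves with RNA integrity and labelling. The same ratio of the *Gapdh* control probes did not set experiment 2 apart, at 4.04 to 4.65 against 3.89 to 4.70 elsewhere.

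**Figure D1:**
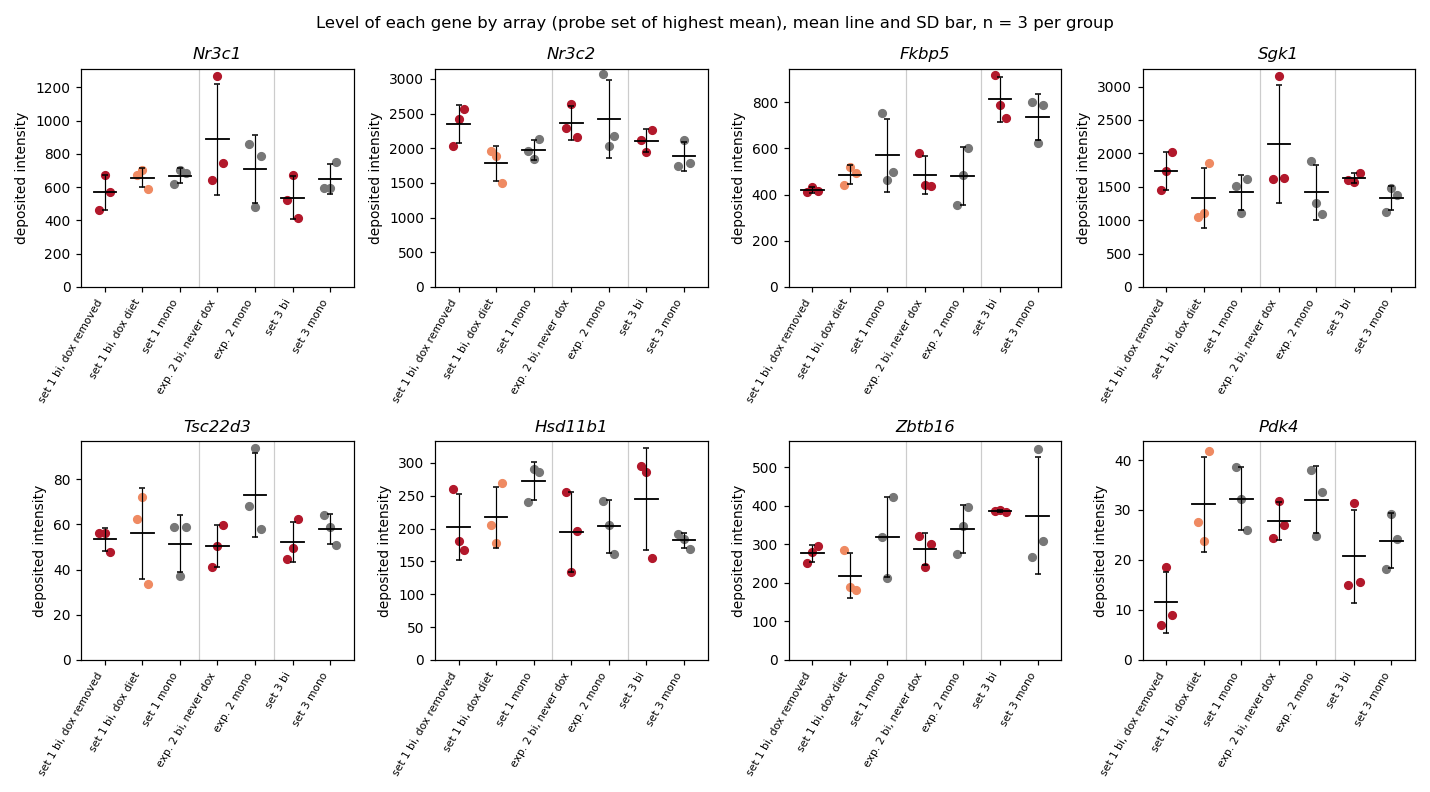
Deposited intensity of each of the 8 genes on every array, with the group mean as a line and the SD as a bar (n = 3 arrays per group, each panel's axis starting at 0). Groups run from set 1 through experiment 2 to set 3, and *Fkbp5* lies between 622 and 917 in set 3.

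The glucocorticoid receptor gene *Nr3c1* did not run one way in the 3 sets. In set 1 it read 464, 674 and 568 after doxycycline removal, 672, 704 and 591 under the doxycycline diet and 616, 699.9 and 686 in monotransgenic mice. Experiment 2 gave 643, 1269 and 747 in bitransgenic mice against 859.8, 479 and 789 in monotransgenic mice. In set 3 the values were 524, 672 and 413 in bitransgenic mice against 597, 596 and 751 in monotransgenic mice. Every group overlapped its comparison group. The log2 difference was -0.24 ± 0.22 (SE) for removed against monotransgenic, 0.24 ± 0.22 in experiment 2 and -0.30 ± 0.22 in set 3. That of experiment 2 rests on single arrays for its sign, since it ran from -0.017 to 0.41 when 1 array was left out. The mean of the 3 was -0.10 ± 0.13 (95% interval -0.37 to 0.17, limma adjusted p = 0.806).

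The other bright *Nr3c1* probe sets gave related but not identical pictures. Over group-centred values of the 21 arrays, the 3 kept probe sets correlated with one another at r between 0.57 and 0.86. One of them (1421867_at) was the only one of the 3 kept *Nr3c1* probe sets with the same sign in all 3 sets. After doxycycline removal its intensity was 215, 246 and 254, against 279.9, 277 and 294 under the diet and 254, 305 and 228 in monotransgenic mice of set 1. It was 150.2, 194 and 128 in bitransgenic and 212, 168 and 265 in monotransgenic mice of experiment 2. Set 3 held 166, 194 and 158 in bitransgenic and 195, 185 and 229.6 in monotransgenic mice. The removed group lay wholly below the diet group, and the other pairs overlapped. Its mean difference over the 3 sets was -0.22 ± 0.11, with a limma adjusted p of 0.438 and an unadjusted exact permutation p of 0.04975 over 8000 relabelings within sets (n = 3 per group, two-sided). On the remaining one (1457635_s_at, a suffix that marks probes shared between transcripts), both bitransgenic groups of set 1 lay below the monotransgenic group after normalization. Its differences there were -0.31 ± 0.19 after removal and -0.16 ± 0.19 on the diet, and these share the monotransgenic arrays.

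The mineralocorticoid receptor gene *Nr3c2* was among the steadier members. The set 1 arrays read 2039, 2420.2 and 2571 after removal, 1962, 1889 and 1497 under the doxycycline diet and 1955, 1846 and 2128 in monotransgenic mice. Bitransgenic mice of experiment 2 read 2291, 2640.0 and 2155, and their monotransgenic counterparts 3069.6, 2028 and 2177. Bitransgenic mice of set 3 read 2118, 1939.8 and 2266, and monotransgenic mice 1737, 2124 and 1786. Its deposited intensities after removal all lay above those of the diet group, but these groups overlapped after normalization, as did every other pair on both scales. After doxycycline removal its level was 0.36 ± 0.14 log2 units above the diet group, the only *Nr3c2* difference whose 95% interval (0.07 to 0.64) left out 0, but the adjusted p was 0.951. Over the 3 sets it differed by 0.10 ± 0.08 (adjusted p = 0.665), with an interval of -0.07 to 0.26 that bounds a shared change more closely than for any other member.

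*Hsd11b1* codes for the enzyme that regenerates active corticosterone from its inactive form inside cells. In set 1 it read 259.6, 181 and 167 after doxycycline removal, 205, 178 and 269 under the doxycycline diet and 239.9, 291 and 286 in monotransgenic mice. Experiment 2 gave 256, 134 and 196 in bitransgenic mice against 243, 205 and 161 in monotransgenic mice. In set 3 the values were 295, 286 and 155 in bitransgenic mice against 192, 184 and 169 in monotransgenic mice. No compared groups separated. The differences ran in opposite directions, -0.39 ± 0.23 for removed against monotransgenic, 0.00 ± 0.23 in experiment 2 and 0.35 ± 0.23 in set 3, and their mean was -0.01 ± 0.14 (adjusted p = 0.981). Tested directly, the set 1 difference minus the set 3 difference was -0.74 ± 0.33, with an adjusted p of 1.00. Across the 21 arrays *Hsd11b1*, centred within groups, moved with the astrocyte markers (r = 0.71 with the mean log2 level of 6 markers, all 6 kept). The summed astrocyte signal was 2188 to 3221 after removal, 2282 to 2843 under the diet and 2112 to 2362 in the monotransgenic arrays of set 1. It was 1635 to 2247 in bitransgenic against 1735 to 2425 in monotransgenic arrays of experiment 2, and 2215 to 2434 in bitransgenic against 1820 to 2933 in monotransgenic arrays of set 3. In bulk tissue fewer cells of a type and less RNA per cell cannot be told apart, and the part of astrocyte content in these *Hsd11b1* values was not tested.

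*Fkbp5* codes for a co-chaperone that lowers the receptor's affinity for hormone and is itself induced by the receptor, closing a short feedback loop. After doxycycline removal its intensity was 409.6, 434 and 415, against 440.1, 520.1 and 495 under the diet and 752, 464 and 496 in monotransgenic mice of set 1. It was 579, 440.5 and 436 in bitransgenic and 353, 485 and 602 in monotransgenic mice of experiment 2. Set 3 held 917, 789 and 729 in bitransgenic and 799.7, 622 and 785 in monotransgenic mice. The 3 removed arrays lay closely together and below every diet and every monotransgenic array, while the 6 arrays of set 3 lay high in both genotypes. In set 1 the log2 difference of the removed group was -0.39 ± 0.19 against monotransgenic (adjusted p = 0.737) and -0.18 ± 0.19 against the diet group (adjusted p = 1.00), and these 2 comparisons share the removed arrays. Without monotransgenic replicate 1 of set 1 the first of these was -0.16. Bitransgenic minus monotransgenic was 0.03 ± 0.19 in experiment 2 and 0.14 ± 0.19 in set 3. The mean over sets was -0.07 ± 0.11 (95% interval -0.30 to 0.16, adjusted p = 0.835). Set 1 minus set 3, tested directly, was -0.52 ± 0.27 (adjusted p = 1.00).

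The dimmer kept *Fkbp5* probe set (1448231_at, 14.8 to 50.9 over all arrays) did not follow the bright one, with r = -0.10 over group-centred values. It was lower on the diet than in monotransgenic mice without overlap (-0.28 ± 0.21), a pair in which the bright probe set overlapped. The bright probe set ran high in set 3, with ranges that overlapped set 1. Its intensity was 622 to 917 in set 3, 353 to 602 in experiment 2 and 410 to 752 in set 1. Set 3 bitransgenic and set 3 monotransgenic mice held the first and second place in the order of its 7 group means, and the gap to the group after them (165) exceeded the larger of the 2 SDs beside it (158), the only such gap among the 6 for this gene. The sets differ in labels, in sex-linked signal and in the actin ratio, and the difference between sets was not tested.

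**Figure D2:**
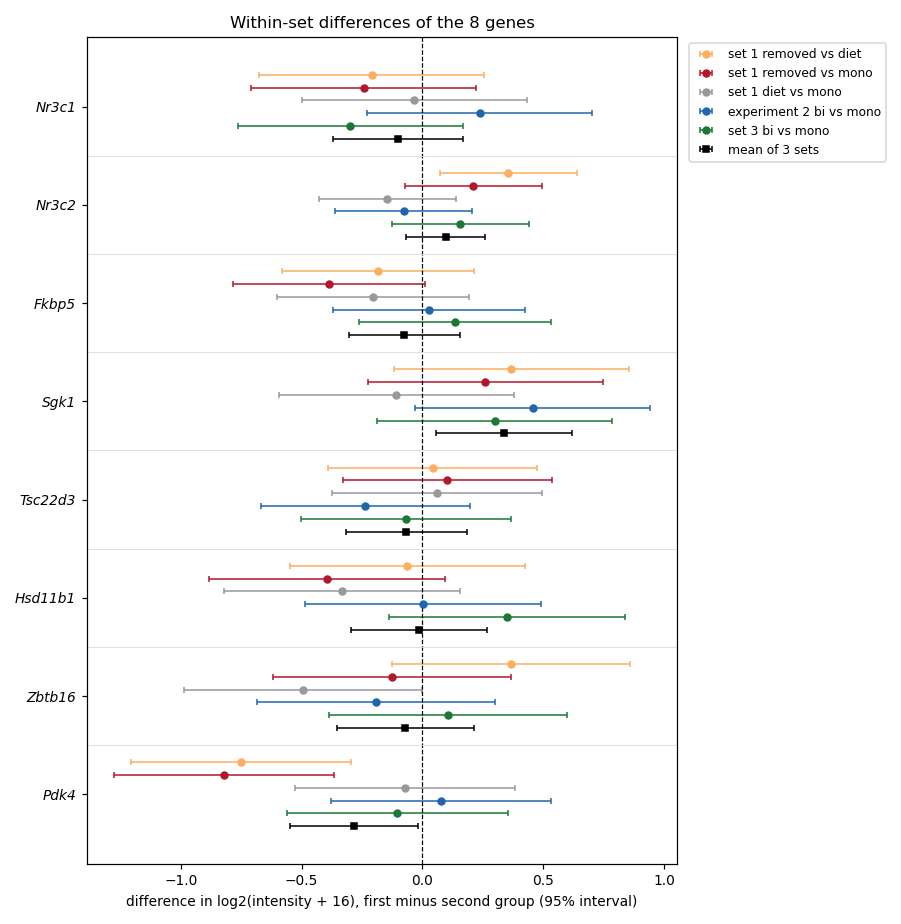
Log2 differences of the 8 genes, first-named minus second-named group, as points with 95% intervals from the limma fit, for 5 comparisons of groups and the mean of the 3 sets (squares). Most intervals cross 0 (dashed line), and the *Sgk1* mean of 0.34 lies highest and the *Pdk4* mean of -0.28 lowest.

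*Sgk1* codes for a serum- and glucocorticoid-induced kinase that raises ion channel and transporter activity. Among the 8 genes, only its probe set of highest mean had the same direction in all 3 sets. How many of all genes do so was not counted. The set 1 arrays read 1452, 1731 and 2026 after removal, 1043, 1108 and 1849 under the doxycycline diet and 1514, 1114 and 1620.0 in monotransgenic mice. Bitransgenic mice of experiment 2 read 1623, 3156 and 1633, and their monotransgenic counterparts 1886, 1263 and 1095. Bitransgenic mice of set 3 read 1600.3, 1566 and 1711, and monotransgenic mice 1126, 1482 and 1376. In set 3 every bitransgenic array was above every monotransgenic array, while in set 1 and experiment 2 the ranges overlapped. The transgene-on group was higher by 0.26 ± 0.23 in set 1, 0.46 ± 0.23 in experiment 2 and 0.30 ± 0.23 in set 3. The mean over the 3 sets was 0.34 ± 0.14 (95% interval 0.06 to 0.62), a fold of 1.26. Its limma adjusted p was 0.309, so the call was not made. The exact permutation of labels within sets gave an unadjusted two-sided p of 0.01825 (8000 relabelings, n = 3 per group), the lowest of the 15 member probe sets tested in this way. On the diet, with the transgene off, *Sgk1* differed from monotransgenic mice by -0.11 ± 0.23.

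The experiment 2 part of the *Sgk1* difference moved in either direction with single arrays. Without bitransgenic replicate 2, at 3156, the difference there was 0.18 in place of 0.46, and the mean over sets was 0.25 in place of 0.34. That array had the highest beta-actin ratio of all 21 (6.24), and monotransgenic replicate 1 had the next (5.84). Within experiment 2 these 2 arrays also held the highest values of *Nr3c1*, *Nr3c2* and *Sgk1*. Leaving out monotransgenic replicate 1 alone gave an *Sgk1* difference of 0.64 in experiment 2. Leaving out both arrays gave 0.36 there and 0.31 over the 3 sets. Taking the actin ratio as a covariate gave 0.27 and 0.31. Over the 6 arrays of experiment 2, the correlation with the actin ratio was 0.94 for *Sgk1*, 0.81 for *Nr3c1*, 0.62 for *Nr3c2* and -0.91 for *Zbtb16*. The experiment 2 values were not centred within groups, so they also hold any difference between its bitransgenic and monotransgenic arrays. Over the other 15 arrays, centred within groups, the correlations in the same gene order were -0.12, -0.05, -0.11 and -0.17. Because only the latter were centred, they cannot be set directly against the correlations of experiment 2. These are descriptions of few arrays, and the part of RNA integrity in the differences was not tested.

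**Figure D3:**
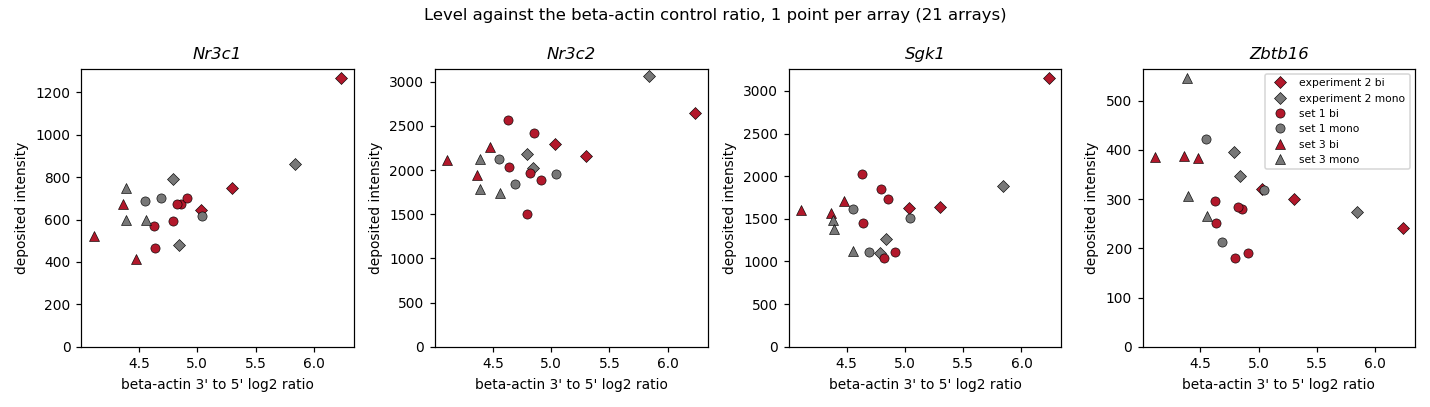
Deposited intensity of 4 of the genes against the log2 ratio of 3' to 5' beta-actin control signal, 1 point per array, with shape for the set and colour for genotype (red bitransgenic, grey monotransgenic). The 2 experiment 2 arrays at ratios of 6.24 and 5.84 carry the highest *Nr3c1*, *Nr3c2* and *Sgk1* values of that experiment.

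*Tsc22d3* codes for the glucocorticoid-induced leucine zipper, a mediator of anti-inflammatory effects of the hormone. All of its probe sets were dim, the brightest (1425557_x_at) reading 33.5 to 93.8 over the 21 arrays. Its groups averaged 53.4 ± 4.93 after removal, 56.0 ± 20.1 under the diet and 51.5 ± 12.6 in monotransgenic mice of set 1 (SD, n = 3). They averaged 50.5 ± 9.41 in bitransgenic and 73.2 ± 18.5 in monotransgenic mice of experiment 2, and 52.2 ± 9.04 in bitransgenic and 57.9 ± 6.73 in monotransgenic mice of set 3. All of these ranges overlapped within their sets, and the mean difference was -0.07 ± 0.12 (adjusted p = 0.866). The 3 kept probe sets did not track one another, with r from -0.50 to 0.18. One of them (1425281_a_at) was higher in bitransgenic mice in all 3 sets, with a mean difference of 0.20 ± 0.13 (adjusted p = 0.551), and another (1420772_a_at) was higher on the diet than in monotransgenic mice without overlap (0.23 ± 0.26). The *Tsc22d3* probe set below the filter (1444365_at) read 9.97, 12.7 and 15.4 after removal, 6.54, 9.48 and 14.1 under the diet and 4.63, 1.40 and 0.87 in monotransgenic mice of set 1. Both bitransgenic groups lay above the monotransgenic one, by 0.66 ± 0.19 after removal and 0.49 ± 0.19 on the diet, with limma adjusted p of 0.366 and 1.00 in the fit without the filter, and these differences share the monotransgenic arrays. It was 0.18 ± 0.19 in experiment 2 and -0.23 ± 0.19 in set 3.

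*Zbtb16* codes for the zinc finger repressor PLZF, which glucocorticoids induce in several human and rodent cell types. In set 1 it read 252, 281 and 296 after doxycycline removal, 285, 190.0 and 181 under the doxycycline diet and 319, 213 and 422 in monotransgenic mice. Experiment 2 gave 321, 241 and 301 in bitransgenic mice against 274, 347 and 396 in monotransgenic mice. In set 3 the values were 385, 388 and 384 in bitransgenic mice against 266, 547 and 307 in monotransgenic mice. The 3 set 3 bitransgenic arrays lay close together, and monotransgenic arrays of the same set lay on both sides of them. On the diet the level was -0.49 ± 0.24 against monotransgenic mice (limma adjusted p = 1.00), with overlap. The mean over sets was -0.07 ± 0.14 (adjusted p = 0.876). Another probe set of *Zbtb16* (1439163_at) was higher in the transgene-on group of all 3 sets by 0.10, 0.01 and 0.27, with a mean of 0.13 ± 0.14 (adjusted p = 0.760). The dimmest *Zbtb16* probe set (1427638_at, 1.93 to 37.0 over all arrays) overlapped in every comparison, with a mean difference of 0.01 ± 0.20 (adjusted p = 0.991). The probe sets correlated with one another at r between 0.27 and 0.53.

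*Pdk4* codes for a kinase that inhibits pyruvate dehydrogenase and so spares glucose, and glucocorticoids induce it in muscle and other tissues. After doxycycline removal its intensity was 7.03, 18.5 and 9.00, against 27.6, 23.9 and 41.9 under the diet and 38.6, 32.2 and 25.95 in monotransgenic mice of set 1. It was 24.4, 31.9 and 26.98 in bitransgenic and 37.9, 24.7 and 33.6 in monotransgenic mice of experiment 2. Set 3 held 15.04, 31.4 and 15.6 in bitransgenic and 18.1, 29.2 and 24.2 in monotransgenic mice. After doxycycline removal every array lay below every diet and every monotransgenic array, and elsewhere the ranges overlapped. The log2 difference was -0.75 ± 0.22 against the diet group (adjusted p = 0.585) and -0.82 ± 0.22 against monotransgenic mice (adjusted p = 0.251), which were the widest differences of any member and share the removed arrays. Bitransgenic minus monotransgenic was 0.08 ± 0.22 in experiment 2 and -0.10 ± 0.22 in set 3. Set 1 minus experiment 2, tested directly, was -0.90 ± 0.31 (adjusted p = 0.413). At intensities this low the size depends on the pseudocount, and the removed against monotransgenic difference was -1.5 with 1 added in place of 16 and -0.35 with 64 added. No detection calls were used, so how far these levels lie above background is not known.

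Markers of some other cell types differed between the groups of set 1 and stand beside these values. The summed intensity of 6 meningeal markers (4 above the filter, *Col1a1* and *Slc6a13* below it) was 61.0 to 110 after removal and 84.5 to 124 on the diet, against 705 to 869 in monotransgenic mice. It was 109 to 166 in bitransgenic and 167 to 602 in monotransgenic mice of experiment 2, and 85.6 to 209 in bitransgenic and 96.7 to 968 in monotransgenic mice of set 3. The sum of the 5 microglia markers was 976 to 1145 after removal, 1141 to 1413 under the diet and 1229.9 to 1661 in monotransgenic mice of set 1. In the same set the 2 CA1 markers summed to 252 to 342 after removal, 320.1 to 432 under the diet and 396 to 429.9 in monotransgenic mice. The 4 choroid plexus markers (*Folr1* below the filter) summed to 61.9 to 67.7 after removal, 39.1 to 78.7 under the diet and 74.9 to 87.6 in monotransgenic mice. The removed and monotransgenic arrays of set 1 therefore did not overlap for 4 of the 10 marker sums. Among single probe sets, 19.2% did not overlap in that comparison. The meningeal sums of experiment 2 did not overlap either. For the microglia, CA1 and choroid plexus sums, the groups of experiment 2 and those of set 3 overlapped. The part of these cells in the set 1 values of *Fkbp5*, *Sgk1* and *Pdk4* was not tested. Over group-centred values of the 21 arrays, given as a description of 10 marker lists, *Sgk1* ran against the choroid plexus (r = -0.65) and CA1 (r = -0.60) markers, and *Pdk4* against the choroid plexus markers (r = -0.57). *Fkbp5* ran with the CA2 and CA3 markers (r = 0.59), and against the endothelial and pericyte ones (r = -0.50). With the meningeal markers the r was 0.40 for *Fkbp5*, -0.24 for *Sgk1* and 0.01 for *Pdk4*. *Zbtb16* ran against the meningeal markers (r = -0.54) and with the microglia markers (r = 0.54). Against the oligodendrocyte markers ran *Nr3c2* (r = -0.57) and *Nr3c1* (r = -0.52).

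Set side by side over all 15 kept probe sets, the comparisons gave no call. For removed against diet, 0 of 15 passed, where 0.0185% of all 27022 probe sets did, and 3 of 15 did not overlap, where 14.7% of all did not. For removed against monotransgenic the counts were 0 of 15 (0.0333% of all) and 3 of 15 (19.2%). For the diet against monotransgenic they were 0 (0.0037%) and 3 (13.6%). In experiment 2 they were 0 (0.311%) and 0 (10.2%), and in set 3 they were 0 (0%) and 1 (13.9%). *Rtn4r* itself was not called in set 3 either. In the mean of 3 sets 0 of 15 passed, where 0.0703% of all probe sets did. In the differences between sets 0 of 15 passed for set 1 minus experiment 2 (0.0074% of all), set 1 minus set 3 (0%) and experiment 2 minus set 3 (0.0074%).

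At an unadjusted limma p under 0.05 stood 2 of the 15 for removed against diet (4.72% of all probe sets), 1 for removed against monotransgenic (6.86%) and 1 for the diet against monotransgenic (3.75%). There were 0 in experiment 2 (15.9%), 0 in set 3 (4.63%) and 2 in the mean of 3 sets (11.8%). Of the 8 genes, 2 were higher and 6 lower in the mean of 3 sets, with a median difference of -0.07 beside 0.00 over all probe sets. In set 3 the median of the 8 was 0.12 and after removal against monotransgenic it was -0.18, beside 0.01 and 0.00 over all. Of the 15 probe sets, 4 had the same sign in all 3 sets, *Sgk1*, 1 of *Tsc22d3* and 1 of *Zbtb16* higher and 1 of *Nr3c1* lower. The share of all probe sets with the same sign in all 3 sets was not counted. Agreement of sign is therefore not a result about the members. In the single comparisons the unadjusted 95% intervals of the 8 genes reached between 0.28 and 0.49 to either side of the estimate. In the mean of 3 sets they reached between 0.16 and 0.28. Changes smaller than these could not be told from 0 with 3 arrays a group. A call after adjustment asked for more than this. *Pdk4* at -0.82 for removed against monotransgenic (limma adjusted p = 0.251) and *Sgk1* at 0.34 in the mean of 3 sets (0.309) were not called.

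The order of group means changed from gene to gene. The highest group mean was between 1.36 times (*Nr3c2*) and 2.80 times (*Pdk4*) the lowest. Of the 6 gaps between neighbours in each gene's order, none exceeded the larger SD of the pair for *Nr3c1*, *Nr3c2*, *Sgk1*, *Tsc22d3*, *Hsd11b1* and *Pdk4*, and 1 did for *Fkbp5* and for *Zbtb16*. For *Sgk1* the first 3 places were held by the 3 groups with the transgene meant to be on. These were bitransgenic mice of experiment 2 (2137 ± 882), removed mice of set 1 (1736 ± 287) and bitransgenic mice of set 3 (1626 ± 76.0). The arrays of the first group read 1623, 3156 and 1633. Such an order crosses sets that differ in sex-linked signal and in the actin ratio. The share of all genes with this order was not counted, so it is not a result about *Sgk1*.

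Whether the genes moved together from array to array was examined over 28 pairs, with each value taken minus its group's mean. No pair had a permutation p under 0.05 after adjustment over the 28 pairs. The closest pair was *Nr3c1* and *Pdk4*, with Pearson's r of 0.58 (permutation p = 0.0209, adjusted p = 0.586) and Spearman's rho of 0.57 (permutation p = 0.0282, adjusted p = 0.700) over 21 arrays. Without the 2 arrays farthest from the median of *Nr3c1* r was 0.50, and within sets it was 0.09 in set 1, 0.95 in experiment 2 and 0.77 in set 3. *Nr3c2* and *Zbtb16* followed with r of 0.50 (permutation p = 0.0807, adjusted p = 0.753) and rho of 0.48 (permutation p = 0.0895, adjusted p = 0.700). That pair ran together in set 1 (0.70) and set 3 (0.91) and oppositely in experiment 2 (-0.74), and r was 0.62 without the 2 farthest arrays. Over the 15 arrays outside experiment 2 its r was 0.76 (permutation p = 0.00041, adjusted p = 0.0115) and its rho 0.80 (permutation p = 0.00232, adjusted p = 0.0650), with r of 0.84 without the 2 farthest. *Fkbp5* and *Sgk1*, both induced by the receptor, had an r of -0.23 (permutation p = 0.403, adjusted p = 0.825) and a rho of -0.14 (permutation p = 0.631, adjusted p = 0.904), with -0.21 without the 2 farthest arrays.

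**Figure D4:**
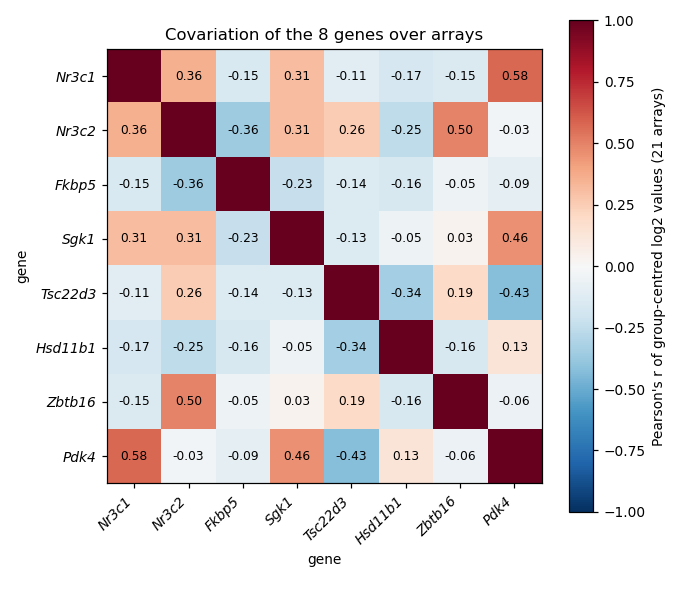
Pearson's r between the 8 genes over 21 arrays after each value was taken minus its group mean, with the value in each cell. The highest is 0.58 for *Nr3c1* and *Pdk4* and the lowest -0.43 for *Tsc22d3* and *Pdk4*.

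The genes whose array-to-array pattern was most like a member's were, by the same measure over 12499 genes and 21 arrays, not members. For *Nr3c1* they were *Zfp770* (r = 0.90), *Klhl2*, *Vps13a*, *Msl3* and *Ppp1cb* (0.87 to 0.89), and *Pdk4*, the nearest member, ranked 1187. For *Nr3c2* they were *Clvs2* (0.87), *Plekha4*, *Nf1*, *Rwdd3* and *Cth* (0.83 to 0.84), with *Zbtb16* ranked 593. For *Sgk1* they were *Stxbp5l* (0.85), *Col7a1*, *Insm1*, *Fnbp1l* and *Pcdh15* (0.83 to 0.84), with *Pdk4* ranked 1561. *Fkbp5* was nearest to *Prcc* (0.79), *Rsph3a*, *Mindy3*, *Mif4gd* and *Ramp2* (0.74 to 0.77), and *Tsc22d3* to *Naip6* (0.79), *Pcnx3*, *Cux2*, *D130051D11Rik* and *Card6* (0.74 to 0.79). These points share their arrays, and without experiment 2 the r of *Nr3c1* with *Zfp770* was 0.73.

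Other genes of corticosteroid signalling were read from 5 lists. Of 54 genes named, 40 were measured above the filter, and 0 passed in any of the first 6 comparisons. The rest were below the filter or had no probe set assigned to their symbol alone. Such a probe set was at hand for only 5 of the 8 receptor chaperones and 8 of the 10 receptor coregulators named. Among 20 further glucocorticoid-induced genes, 8 were higher and 12 lower in the mean of 3 sets (median -0.05 beside 0.00 over all probe sets), and 5 were higher and 15 lower after removal against monotransgenic (median -0.19 beside 0.00). In experiment 2 there were 8 higher and 12 lower (median -0.10), and in set 3 there were 11 higher and 9 lower (median 0.05). The 2 of lowest p in the mean of 3 sets were *Klf15*, a transcription factor of amino acid and lipid metabolism (-0.42 ± 0.11, limma adjusted p = 0.115), and *Cebpd*, an inflammatory transcription factor (-0.50 ± 0.17, limma adjusted p = 0.232). In set 1 (removed against monotransgenic), experiment 2 and set 3, *Klf15* differed by -0.66, -0.55 and -0.04. *Cebpd* differed by -0.97, -0.39 and -0.125 in the same order. Values for the lists that follow are from the mean of 3 sets too. Of the 5 receptor chaperones, 2 were higher and 3 lower (median -0.0039), led by *Dnajb1*, a partner of heat shock chaperones (0.34 ± 0.09, adjusted p = 0.135), and *Stip1*, which hands the receptor between chaperones (0.31 ± 0.16, adjusted p = 0.449).

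Among 8 receptor coregulators, 5 were higher and 3 lower (median 0.05), with *Med1*, a Mediator subunit that nuclear receptors contact (0.18 ± 0.11, adjusted p = 0.539), and *Crebbp*, a histone acetyltransferase (0.12 ± 0.11, adjusted p = 0.702), at the lowest p. Of the 3 genes of steroid metabolism and transport 2 were higher and 1 lower (median 0.19), with *Abcb1b*, a drug and steroid exporter (0.26 ± 0.14, adjusted p = 0.490), and *H6pd*, which supplies the cofactor that *Hsd11b1* needs (0.19 ± 0.19, adjusted p = 0.732). Of the 4 stress hormone genes, 1 was higher and 3 lower (median -0.12), with the corticotropin-releasing hormone receptor *Crhr1* at -0.45 ± 0.17 (adjusted p = 0.292) and *Crhr2* at -0.10 ± 0.15 (adjusted p = 0.846).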

How the data were processed

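Total RNA of mouse dentate gyrus was measured on 21 Affymetrix arrays. The deposited table holds 1 linear intensity per probe set, which the authors scaled so that the mean without the lowest and highest 2% of probe sets was 150 on each array. That was read from the values, and no source used here names the software behind it. Of 45101 probe sets, 64 were controls, 34945 had 1 gene symbol, 932 several and 9160 none. Of those with 1 symbol, 34741 matched the RefSeq gene table by Entrez ID. After log2(intensity + 16) the array medians ran from 5.19 to 5.49, and arrays were quantile normalized. Whether 2 groups overlap was read from normalized values. Probe sets with a mean log2 of 4.90 or more, the upper 60%, entered 1 limma fit (limma 3.58.1, R 4.3.3) with a coefficient per group, 14 residual degrees of freedom and a variance trend. Tests were two-sided and adjusted by Benjamini-Hochberg over all 27022 probe sets. The fit code was also run on simulated data with independent scatter and planted changes larger than the member differences of the main fit. That run does not bear on the power to find the differences reported here. Pairs of genes were tested by permutation within groups.

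The members, gene lists and naming rules were chosen with earlier results of these data known. Each kept member probe set is described, and 1 of the 5 below the filter (1444365_at) was named after its values were seen. From each list, genes past the threshold or otherwise the 2 of lowest p in the mean of 3 sets are named, and for 5 members the 5 genes of highest r. Alternatives were pseudocounts of 1 and 64, no filter, no quantile normalization, 1 probe set per gene, fits within a set, array weights, the actin ratio as a covariate, a factor for title prefix in set 3, set 1 and set 3 only, and leaving out each array. Leaving out the 2 arrays of highest actin ratio, and each array in turn for the pairs of genes, were chosen after seeing the data. The number of arrays limits the precision.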

Additional observations from a re-analysis of the deposited data

How the results depend on the processing

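Under every alternative run, 0 member probe sets passed in the 6 comparisons and in the differences between sets. The lowest limma adjusted p over these settings was taken over all 15 kept member probe sets, not only those of highest mean. It was 0.0621 (*Pdk4*, removed against monotransgenic, array weights), 0.214 (*Pdk4*, removed against diet) and 0.497 (*Zbtb16*, diet against monotransgenic). It was 0.135 (*Sgk1*) in experiment 2, 0.298 (*Hsd11b1*) in set 3 and 0.0762 (a probe set of *Nr3c1*, array weights) in the mean of 3 sets. The *Nr3c1* difference in that last fit was -0.29, against -0.10 as reported for the *Nr3c1* probe set of highest mean. Counts over all probe sets moved far more, between 0 and 114 for removed against diet (5 as reported), 0 and 417 for removed against monotransgenic (9), 0 and 33 for diet against monotransgenic (1), 0 and 1200 in experiment 2 (84), 0 and 80 in set 3 (0) and 4 and 1027 in the mean of 3 sets (19). Some differences changed sign. On the deposited scale *Tsc22d3* was -0.014 for removed against diet (0.04 as reported), and in experiment 2 *Hsd11b1* was -0.078 (0.003) and *Pdk4* -0.13 (0.08), or -0.028 with the actin covariate. With array weights *Fkbp5* was -0.15 in experiment 2 (0.03), *Pdk4* 0.013 in set 3 (-0.10) and *Hsd11b1* 0.094 in the mean of 3 sets (-0.01). Without the 2 arrays of highest actin ratio *Nr3c2* was 0.0004 and *Fkbp5* -0.11 in experiment 2 (-0.08 and 0.03), and *Hsd11b1* 0.10 in the mean. With set 1 and set 3 only, *Tsc22d3* was 0.018 in the mean (-0.07). The causes were not tested. Leaving out 1 array in turn gave, in experiment 2, -0.15 to 0.19 for *Fkbp5*, -0.17 to 0.18 for *Hsd11b1*, -0.017 to 0.41 for *Nr3c1*, -0.16 to 0.042 for *Nr3c2* and -0.069 to 0.18 for *Pdk4*. It gave -0.34 to 0.018 for *Fkbp5*, -0.086 to 0.044 for *Nr3c1*, -0.26 to 0.054 for *Pdk4*, -0.37 to 0.042 for *Sgk1* and -0.11 to 0.30 for *Tsc22d3* in diet against monotransgenic. It gave -0.25 to 0.092 for *Hsd11b1* and -0.19 to 0.21 for *Tsc22d3* in removed against diet, and -0.048 to 0.18 for *Tsc22d3* and -0.37 to 0.080 for *Zbtb16* in removed against monotransgenic. In set 3 *Pdk4* ran from -0.30 to 0.014 and *Zbtb16* from -0.091 to 0.42, and in the mean of 3 sets *Fkbp5* ran from -0.13 to 0.0003, *Hsd11b1* from -0.075 to 0.074 and *Zbtb16* from -0.15 to 0.033. *Sgk1* was above 0 in every alternative for the mean of 3 sets. Pairs of genes that passed numbered 0 as reported, 1 without the arrays of experiment 2 (*Nr3c2* and *Zbtb16*), and between 0 and 2 leaving out 1 array, the 2 being *Nr3c1* with *Pdk4* and *Nr3c2* with *Sgk1* without replicate 3 of the diet group. Replicate numbers follow the order of the samples and pair nothing, but in set 3 a title prefix occurs in both groups for 2 pairs of arrays. Their deviations from the group means correlated at 0.16 and -0.0095, against -0.19 to 0.13 for pairs of unlike prefix. With so few arrays these values cannot show whether a shared prefix marks a shared origin. The main fit did not take the prefix as a pairing. With the prefix as a replicate block, which leaves the contrast to those 2 pairs, 0 member probe sets passed, and the set 3 differences were -0.52 for *Nr3c1* (-0.30 as reported), -0.41 for *Pdk4* (-0.10), 0.0023 for *Tsc22d3* (-0.07), -0.087 for *Zbtb16* (0.11), 0.24 for *Fkbp5* (0.14), 0.21 for *Sgk1* (0.30), 0.27 for *Hsd11b1* (0.35) and 0.14 for *Nr3c2* (0.16). No detection calls were used, so how far the dim probe sets of *Pdk4* and *Tsc22d3* lie above background is not known.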
